A study of Mus musculus with 42 samples.

Results

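Expression of 9 genes of the lysosomal amino acid branch upstream of mTORC1 was followed in mouse kidneys that had lost Tsc2, Tfeb or both. The genes were chosen by name and are Rraga, Rragc and Rragd (Rag GTPases), Flcn, Fnip1 and Fnip2 (the folliculin complex), Lamtor1 and Lamtor2 (Ragulator) and Slc38a9, 9 of the 54532 genes in the deposited tables. All 9 passed the filter on low counts in each of the 3 cohorts.

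mTORC1 is the kinase complex through which growth factors and amino acids drive cell growth, and the TSC protein complex restrains it by switching off the GTPase Rheb. Amino acids act through a separate set of GTPases, the Rags, which dock mTORC1 on the lysosome. Each Rag unit is a pair that joins RagA or RagB to either RagC or RagD. Ragulator anchors the Rags there, folliculin with its FNIP partners stimulates GTP hydrolysis by RagC and RagD, and SLC38A9 reports lysosomal arginine. TFEB, a transcription factor that switches on lysosomal genes, is itself presented to mTORC1 by RagC and RagD, and Rragc, Rragd and Flcn are known TFEB targets.

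RNA was sequenced from kidney tissue of 42 C57BL/6 mice in 14 groups of 3. In the CaggCreERT2 cohort a ubiquitously expressed, tamoxifen-inducible Cre was activated by tamoxifen given to the lactating mothers in the first days after birth, and kidneys were taken at P30 from control, Tsc2 KO (Tsc2 fl/fl), Tfeb KO (Tfeb fl/fl) and DKO (Tsc2 fl/fl; Tfeb fl/fl) mice. In the KspCre cohort the same 4 genotypes were made with a Cre driven by the cadherin 16 promoter and kidneys were taken at P50, so that cells outside the tubular epithelium keep both genes. A further KspCre cohort held control, Tsc2 KO and DKO mice that received vehicle or Rapamycin (1 mg/kg, 11 injections from P25, collected at P50), and is called the drug cohort here. The labels give all controls as wild type. By the study's text the sequenced CaggCreERT2 controls carried Cre with intact Tsc2 and received tamoxifen like the Tsc2 KO mice, whereas KspCre controls are described as Cre-negative, so in the KspCre cohorts an effect of Cre alone cannot be told apart from the genotype in comparisons with control.

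Libraries held between 14926050 and 22807605 reads on genes. The targeted gene followed the labels, with Tsc2 at 6.503 FPKM or less in the 24 libraries with floxed Tsc2 and at 6.856 or more in the 18 others. Tfeb fell in CaggCreERT2 DKO kidneys, to 1.99 to 3.48 FPKM against 6.98 to 8.33 in Tsc2 KO (log2 fold change -1.48, adjusted p = 0.00325), and in vehicle-treated DKO of the drug cohort, to 2.57 to 3.18 against 5.58 to 6.09 (-1.07, adjusted p = 0.000667). It was not called in Tfeb KO against control, at 2.73 to 3.73 against 4.57 to 8.02 with CaggCreERT2 (-0.80, adjusted p = 0.394) and 4.32 to 5.25 against 5.85 to 6.24 with KspCre (-0.33, adjusted p = 0.627). KspCre DKO kidneys had Tfeb at 2.65 to 4.09 FPKM, which overlapped the Tsc2 KO range of 3.66 to 6.12 (log2 fold change -0.48, adjusted p = 0.36). Of the 12 CaggCreERT2 libraries, 4 match another sample name by their counts than by their FPKM values, which for 2 of them switches Tfeb KO and DKO. Groups here follow the FPKM naming. The 3 CaggCreERT2 controls were male and the 3 Tfeb KO female, with both sexes in the other 2 groups, whereas all KspCre libraries were female. One KspCre DKO library (replicate 1) stood apart with macrophage markers summing to 678.7 FPKM against 62.95 and 84.18 in the others of its group.

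Levels are given in FPKM, fragments normalised to exon length and library size, which allows genes to be compared per length. A gene is called higher or lower when its adjusted p (edgeR quasi-likelihood test on the counts, Benjamini-Hochberg over all genes tested in the cohort) is 0.05 or lower and its mean reaches 5 FPKM in a group compared. Fold changes are log2 values from that fit, each with its standard error (SE).

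The members lie on 5 chromosomes of GRCm38. Rraga is a gene of 1 exon at chr4:86575668-86577285, and its partners Rragc (chr4:123917446-123936997) and Rragd (chr4:32983037-33022180) lie on the same chromosome. Flcn (chr11:59791408-59810016, minus strand) and Fnip1 (chr11:54438199-54518235) are both on chromosome 11, Fnip2 (chr3:79455974-79567796, minus strand) and Lamtor2 (chr3:88549819-88553074, minus strand) on chromosome 3, Lamtor1 at chr7:101905904-101926675 and Slc38a9 at chr13:112660751-112738749. The libraries do not mark strand. Exons of Lamtor1 share 600 bases (18.7%) with Lrrc51 and those of Rragc 264 bases (7.9%) with 4930535I16Rik on the opposite strand, so a part of their reads cannot be assigned to 1 of the genes.

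TFEB and its relatives bind the E-box CACGTG, best when flanked as in TCACGTG. Both motifs were searched on either strand in the RefSeq promoter window of GRCm38.p6, from 250 bases before to 50 after each start site. CACGTG occurred in 3 of the 9 members and in 7.15% of all 32851 promoters, and the longer TCACGTG, which contains it, in the same 3 members and in 3.77% of all promoters. These 3 promoters are shown around the match because Rragc and Lamtor1 are among the genes that rose below while Fnip1 is not. Capitals mark TCACGTG or its reverse complement, and the first base of CACGTG lies at -112 relative to the start site in Rragc, at -68 in Lamtor1 and at -75 in Fnip1. All 3 stretches are on the plus strand, at chr4:123917281-123917366, chr7:101905729-101905814 and chr11:54438064-54438149.
Rragc: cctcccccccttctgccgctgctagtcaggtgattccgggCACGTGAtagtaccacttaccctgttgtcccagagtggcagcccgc
Lamtor1: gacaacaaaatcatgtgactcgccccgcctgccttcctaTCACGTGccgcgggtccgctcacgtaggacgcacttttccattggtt
Fnip1: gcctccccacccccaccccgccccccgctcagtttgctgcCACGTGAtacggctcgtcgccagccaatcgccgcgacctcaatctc
The windows of Rraga, Rragd, Flcn, Fnip2, Lamtor2 and Slc38a9 do not hold these letters. A match is a description of the sequence and not a binding site.

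The members differed widely in level in control kidneys. In the CaggCreERT2 controls Lamtor2 was highest at 83.0 ± 4.4 FPKM (SD, n = 3), followed by Rraga (36.9 ± 3.5), Lamtor1 (26.6 ± 1.2), Rragc (24.8 ± 1.9), Rragd (14.6 ± 1.0), Fnip2 (11.2 ± 2.4), Flcn (10.7 ± 1.4) and Fnip1 (7.38 ± 0.47). The ranges of Lamtor1 and Rragc overlapped, as did those of Rragd and Fnip2 and of Fnip2 and Flcn. Slc38a9 was lowest at 0.886 ± 0.091 FPKM, where its FPKM is divided by 16704 bases of annotated exons. It still had 161 to 400 reads in each of the 42 libraries, and it never reached the FPKM minimum, so it could not be called whatever its p.

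**Figure D1:**
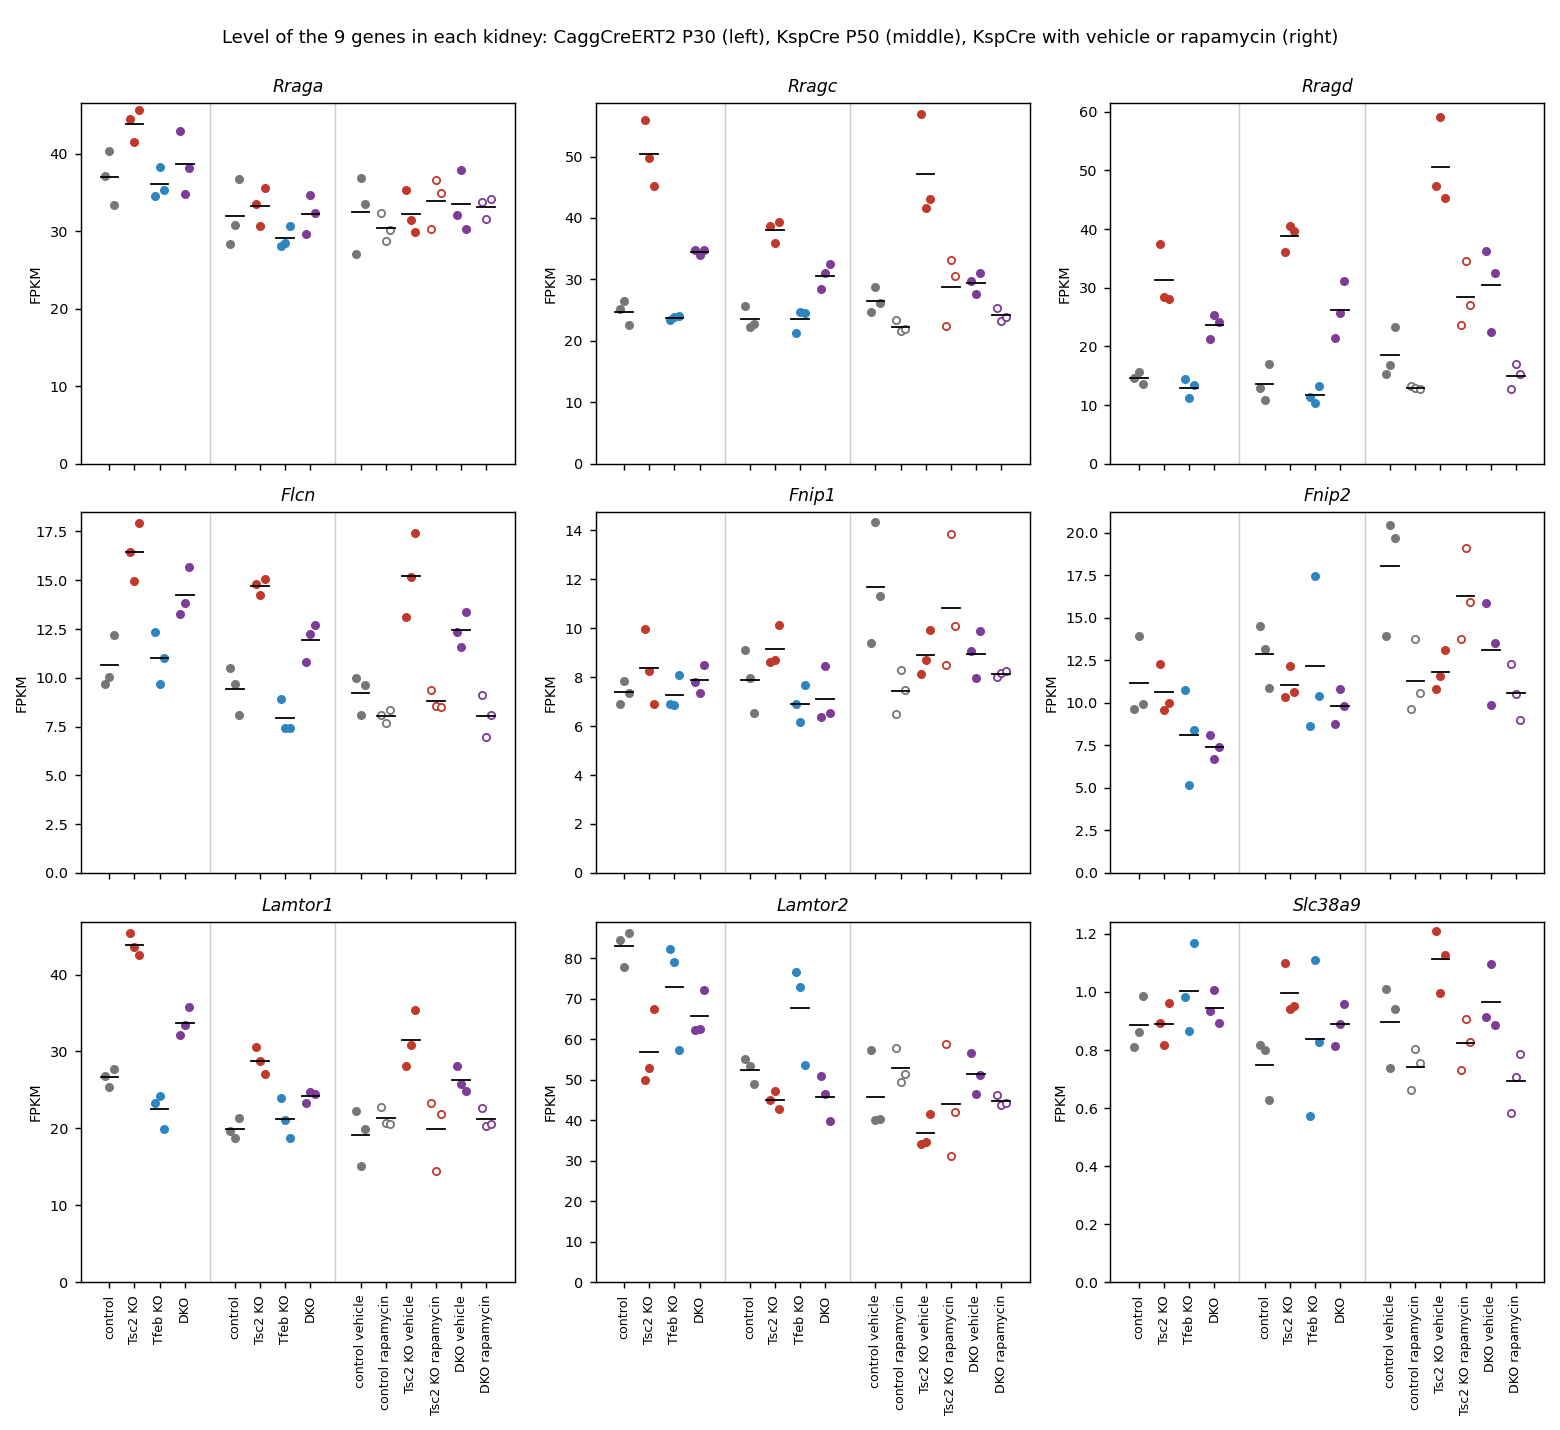
FPKM of each of the 9 genes (vertical axes, each from 0) in all 42 kidneys, by group. Points are kidneys, open points are Rapamycin-treated, and black bars are group means. Rragc, Rragd, Flcn and Lamtor1 have their highest group mean in Tsc2 KO kidneys without Rapamycin in all 3 cohorts.

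Loss of Tsc2 was compared with control in each cohort to see which members change when the brake on mTORC1 is removed. In all 3 cohorts the same 4 members rose, namely Rragc, Rragd, Flcn and Lamtor1, and the Tsc2 KO kidneys lay above all controls for each of them. With CaggCreERT2, 5 of 9 members were called higher, where 11.4% of all genes were, and 1 of 9 lower, where 7.65% were. In the KspCre cohort it was 4 of 9 higher (4.38% of all genes) and 0 lower (4.06%), and in the vehicle-treated drug cohort 4 of 9 higher (11.3%) and 1 lower (11.7%). The median log2 fold change of the 9 members was 0.31, 0.42 and 0.31 in the 3 cohorts, beside medians of 0.0018, -0.013 and 0.0091 over all genes tested. The members were chosen with these results known, so the counts describe them and are no test of the group.

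Rragd encodes RagD and had the largest change of the 9 in each cohort. In the CaggCreERT2 controls it was at 14.6, 15.6 and 13.6 FPKM, and in Tsc2 KO kidneys at 37.5, 28.4 and 28.1, a log2 fold change of 1.16 (SE 0.14, adjusted p = 9.00e-05). KspCre kidneys went from 12.8, 10.9 and 17.1 to 36.1, 40.6 and 39.6 FPKM (log2 fold change 1.51, SE 0.18, adjusted p = 0.000511). Vehicle-treated controls of the drug cohort had 15.3, 16.9 and 23.3 FPKM and Tsc2 KO kidneys 47.4, 59.0 and 45.3 (log2 fold change 1.45, SE 0.20, adjusted p = 3.04e-05). Every Tsc2 KO kidney exceeded every control of its cohort, with folds of 2.24, 2.85 and 2.74.

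Rragc encodes RagC, the close relative of RagD that also pairs with RagA. CaggCreERT2 controls had it at 25.2, 26.4 and 22.6 FPKM and Tsc2 KO kidneys at 56.0, 49.8 and 45.3 (log2 fold change 1.09, SE 0.097, adjusted p = 1.41e-05). KspCre controls were at 25.7, 22.2 and 22.7 FPKM and Tsc2 KO kidneys at 38.7, 35.9 and 39.4 (log2 fold change 0.69, SE 0.11, adjusted p = 0.0017). The drug cohort had it at 24.8, 28.7 and 26.2 against 56.9, 41.6 and 43.2 FPKM (log2 fold change 0.83, SE 0.14, adjusted p = 0.000206). The groups did not overlap in any cohort. The ratio of Rragd to Rragc was 0.58 ± 0.149 (SD, n = 3) in KspCre controls and 1.02 ± 0.0997 in Tsc2 KO, without overlap. In the drug cohort it was 0.699 ± 0.167 and 1.1 ± 0.296, and for CaggCreERT2 kidneys 0.59 ± 0.01 and 0.62 ± 0.0493, with overlapping ranges in both. Whether the ratio differs between the cohorts was not tested.

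Rraga, which encodes RagA, moved little. CaggCreERT2 controls had 37.1, 40.3 and 33.3 FPKM and Tsc2 KO kidneys 44.4, 41.4 and 45.6 (log2 fold change 0.31, SE 0.099, adjusted p = 0.034). That call was lost without Tsc2 KO 1, Tsc2 KO 3, control 1 or control 3, with adjusted p up to 0.131, with Xist as a covariate for sex (adjusted p = 0.181), without the filter on low counts (adjusted p = 0.111) and when only these 2 groups were fitted (adjusted p = 0.0641). In the KspCre and drug cohorts its log2 fold changes were 0.053 (SE 0.12, adjusted p = 0.823) and -0.010 (SE 0.12, adjusted p = 0.957), and the groups overlapped in both.

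Flcn encodes folliculin, the GTPase-activating protein for RagC and RagD. It was at 9.69, 10.1 and 12.2 FPKM in CaggCreERT2 controls and 16.4, 14.96 and 17.9 in Tsc2 KO (log2 fold change 0.69, SE 0.13, adjusted p = 0.0016). KspCre values were 10.5, 9.70 and 8.09 FPKM in controls and 14.8, 14.2 and 15.1 in Tsc2 KO (log2 fold change 0.64, SE 0.12, adjusted p = 0.00611). Drug cohort values were 10.01, 8.08 and 9.65 against 13.1, 15.1 and 17.4 FPKM (log2 fold change 0.72, SE 0.13, adjusted p = 0.000283). The 3 folds, 1.61, 1.56 and 1.65, were close to each other and the groups did not overlap.

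For the folliculin partners no rise was called in any cohort. Fnip1 was at 6.92, 7.86 and 7.37 FPKM in CaggCreERT2 controls and 9.97, 8.26 and 6.89 in Tsc2 KO, which overlap (log2 fold change 0.25, adjusted p = 0.189). This value rested on single libraries, being 0.38 and called without Tsc2 KO 3 (adjusted p = 0.0388) and 0.093 without Tsc2 KO 1. Its log2 fold change was 0.21 in the KspCre cohort (SE 0.15, adjusted p = 0.41) and -0.39 in the drug cohort (SE 0.17, adjusted p = 0.0876), the latter moving to -0.53 without control 1 (called, adjusted p = 0.033) and to -0.21 without control 2. Fnip2 was called in the drug cohort alone, and lower, at 13.96, 20.45 and 19.7 FPKM in vehicle-treated controls and 10.8, 11.6 and 13.1 in Tsc2 KO (log2 fold change -0.61, SE 0.20, adjusted p = 0.024). The call was lost without Tsc2 KO 1, Tsc2 KO 2, control 2 or control 3, with adjusted p up to 0.0924. Mean Fnip2 was 18.04 FPKM in these controls and 12.85 in the KspCre cohort controls, beside 11.84 and 11.05 in Tsc2 KO. Whether the cohorts differ was not tested. Fnip2 in the CaggCreERT2 and KspCre cohorts had log2 fold changes of -0.0077 (SE 0.22) and -0.22 (SE 0.22), with overlapping groups.

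Lamtor1 encodes the Ragulator subunit that carries the lipid anchor to the lysosome, and it rose in every cohort. It was at 26.8, 25.4 and 27.8 FPKM in CaggCreERT2 controls and 45.4, 43.6 and 42.6 in Tsc2 KO (log2 fold change 0.78, SE 0.091, adjusted p = 7.94e-05). KspCre values were 19.6, 18.8 and 21.3 FPKM in controls and 30.6, 28.8 and 27.0 in Tsc2 KO (log2 fold change 0.53, SE 0.11, adjusted p = 0.00931). Drug cohort values were 22.2, 15.2 and 19.9 against 28.1, 30.8 and 35.4 FPKM (log2 fold change 0.72, SE 0.16, adjusted p = 0.00231). No Tsc2 KO kidney overlapped the controls of its cohort.

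Lamtor2, a roadblock-domain subunit of the same complex, went the other way. CaggCreERT2 values were 84.6, 78.0 and 86.4 FPKM in controls and 49.998, 53.0 and 67.6 in Tsc2 KO, without overlap (log2 fold change -0.49, SE 0.14, adjusted p = 0.0205). The call was lost without Tsc2 KO 1, Tsc2 KO 2, control 1 or control 3, with adjusted p up to 0.0904. Log2 fold changes in the KspCre and drug cohorts were -0.23 (SE 0.14, adjusted p = 0.34) and -0.32 (SE 0.19, adjusted p = 0.195). Slc38a9 had log2 fold changes of 0.068 (SE 0.15), 0.42 (SE 0.21) and 0.31 (SE 0.15) in the 3 cohorts, and none passed the test.

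**Figure D2:**
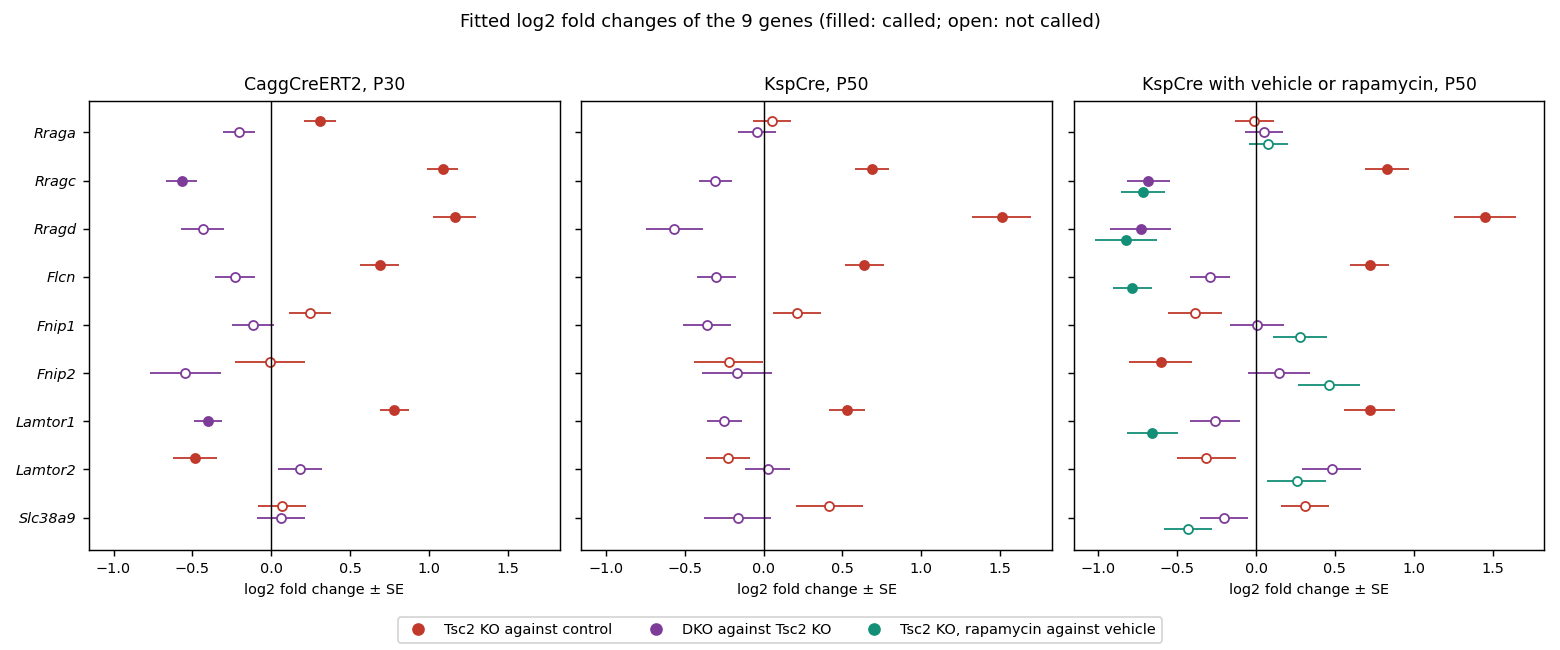
Fitted log2 fold changes with their SE (horizontal axis) of the 9 genes in the 3 cohorts, for Tsc2 KO against control (red), DKO against Tsc2 KO (purple) and rapamycin against vehicle in Tsc2 KO (green). Filled points were called. In each panel the red points of Rragc, Rragd, Flcn and Lamtor1 are filled and lie right of 0, and the other colours of these 4 genes lie left of 0.

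Markers of several cell types moved with the same contrast. In bulk tissue fewer cells of a type and less RNA per cell cannot be told apart. The 6 proximal tubule markers summed to 1676 to 1849 FPKM in CaggCreERT2 controls and 411.1 to 880.2 in Tsc2 KO, to 1365 to 1775 against 698 to 1313 in the KspCre cohort and to 1471 to 1674 against 363.7 to 596.4 in the drug cohort, with 5, 2 and 4 of 6 called lower. The 4 distal convoluted tubule markers fell from 332.4 to 374.5 in CaggCreERT2 controls to 55.2 to 173.0 (3 of 4 called lower, Pvalb listed at 0 in some libraries), and were at 205 to 217.6 against 60.9 to 106.0 (2 lower) and 245.6 to 304 against 53.2 to 68.2 (3 lower) in the other cohorts. All 3 podocyte markers were called lower in each cohort, summing to 139.5 to 153.6 against 38.6 to 58.9, 88.4 to 107.6 against 29.7 to 39.8, and 86.4 to 112.8 against 20.05 to 25.9. Of the 4 principal cell markers 3, 3 and 2 were called lower, and 1 higher in the drug cohort. Of the 4 thick ascending limb markers 3, 2 and 3 were called lower, while their sum, most of it Umod, was 1157 to 1425 against 755.1 to 863 in the CaggCreERT2 cohort, 1412 to 1595 against 1961 to 2135 in the KspCre cohort and overlapping in the drug cohort (Umod not called in any). Macrophage markers, 7 in all, summed to 81.6 to 110.1 in CaggCreERT2 controls and 137.2 to 176.4 in Tsc2 KO (2 called higher), to 51.8 to 72.6 against 95.8 to 155.9 in the KspCre cohort (1 higher) and to 41.2 to 56.5 against 96.7 to 176.4 in the drug cohort (4 higher, 1 lower). The 4 proliferation markers overlapped in the CaggCreERT2 cohort (13.6 to 17.9 and 12.9 to 29.4, 2 called higher), and were at 0.690 to 2.21 against 10.1 to 14.1 in the KspCre and 0.610 to 1.17 against 6.54 to 20.8 in the drug cohort, where all 4 passed the test and 0 and 1 reached the FPKM minimum. The 4 intercalated cell markers did not move one way, summing to 139.3 to 146.8 in controls and 73.2 to 168.9 in Tsc2 KO in the CaggCreERT2 cohort (1 of 4 lower), 87.5 to 118.2 and 157.0 to 283.3 in the KspCre cohort (2 of 4 higher), and 84.2 to 124.8 and 297.2 to 380.8 in the drug cohort (2 higher, 1 lower). Their part in the rise of Rragc, Rragd, Flcn and Lamtor1 was not tested.

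Tfeb was removed together with Tsc2 to see whether the rise needs it. In each cohort this comparison uses the same Tsc2 KO kidneys as the rise, so the 2 are not independent. In the CaggCreERT2 cohort 2 of 9 members were called lower in DKO than in Tsc2 KO, Rragc and Lamtor1, where 3.66% of all genes were. Rragc was at 34.8, 34.0 and 34.7 FPKM in DKO, below every Tsc2 KO kidney (log2 fold change -0.57, SE 0.096, adjusted p = 0.00451). Lamtor1 was at 32.1, 33.4 and 35.7 FPKM (log2 fold change -0.40, SE 0.090, adjusted p = 0.0166). Its call was lost without DKO 1, DKO 2 or Tsc2 KO 1, with adjusted p up to 0.0693, and under the names of the count table (adjusted p = 0.0839), while that of Rragc was not. Rragd was at 21.2, 25.3 and 24.2 FPKM, again below all Tsc2 KO kidneys, but missed the threshold (log2 fold change -0.43, SE 0.14, adjusted p = 0.064). It was called by DESeq2 (adjusted p = 0.0342), without the filter on low counts (adjusted p = 0.0306) and without Tsc2 KO 3 (adjusted p = 0.0355), whereas without Tsc2 KO 1 its log2 fold change was -0.28 (adjusted p = 0.26). Flcn was at 13.3, 13.8 and 15.7 FPKM and overlapped Tsc2 KO (log2 fold change -0.23, SE 0.12, adjusted p = 0.264). Fnip2, which had not risen, was at 8.14, 6.72 and 7.39 FPKM in DKO, below all Tsc2 KO kidneys (log2 fold change -0.54, SE 0.23, adjusted p = 0.145), and was called without the filter on low counts (adjusted p = 0.0139) and when only these 2 groups were fitted (adjusted p = 0.0482).

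The CaggCreERT2 DKO kidneys did not return to control level. All 4 genes stayed above every control kidney and were called higher than control, where 4.95% of all genes were. Of the mean difference between Tsc2 KO and control, 38.2% was left in DKO for Rragc, 41.5% for Lamtor1, 53.7% for Rragd and 62.2% for Flcn. With 1 library left out, Rragc kept 34.8% to 42.9% and Lamtor1 35.7% to 46.3%. Rragd then kept 48.6% to 65.8% and Flcn 50.1% to 71.4%. Log2 fold changes against control were 0.52 for Rragc (SE 0.097, adjusted p = 0.00498), 0.73 for Rragd (SE 0.14, adjusted p = 0.0053), 0.38 for Lamtor1 (SE 0.090, adjusted p = 0.0186) and 0.46 for Flcn (SE 0.13, adjusted p = 0.0368). Under the names of the count table none of these 4 was called, with adjusted p between 0.513 and 0.777, but those names place in DKO a library with Tsc2 at 10.239 FPKM and in Tfeb KO one at 5.26, where Tsc2 in the other DKO libraries was 4.82 and 5.64 and in the other Tfeb KO libraries 9.34 and 9.05. With Xist as a covariate for sex, Flcn (adjusted p = 0.094) and Lamtor1 (adjusted p = 0.0513) were not called, nor was Flcn without the libraries of conflicting genotype (adjusted p = 0.077) or Lamtor1 without the filter on low counts (adjusted p = 0.0826). Both calls also rested on single libraries, as Flcn lost it without DKO 1, DKO 2, DKO 3, control 1 or control 2 (adjusted p up to 0.157) and Lamtor1 without DKO 2, DKO 3, control 1 or control 2 (adjusted p up to 0.0945).

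In the KspCre cohort no member was called lower in DKO than in Tsc2 KO, where 0.0782% of all genes were. At an unadjusted p under 0.05 there were 5 members (12.6% of all genes), and DESeq2 called 0. For Rragc (28.4, 31.0 and 32.5 FPKM), Rragd (21.5, 25.8 and 31.1), Flcn (10.8, 12.2 and 12.7) and Lamtor1 (23.3, 24.8 and 24.5) every DKO kidney lay below every Tsc2 KO kidney and above every control. How many of all genes were ordered in this way was not computed, so the order is a description. The log2 fold changes against Tsc2 KO were -0.31 (SE 0.11, adjusted p = 0.247), -0.57 (SE 0.18, adjusted p = 0.213), -0.30 (SE 0.12, adjusted p = 0.342) and -0.25 (SE 0.11, adjusted p = 0.388) in that order. Fnip1, at 6.36, 8.46 and 6.55 FPKM, also lay below every Tsc2 KO kidney but overlapped control (log2 fold change against Tsc2 KO -0.36, SE 0.15, adjusted p = 0.362). For the 4 genes between 47.1% (Flcn) and 49.8% (Rragd) of the mean difference from control was left. With 1 library left out, Flcn kept 39.4% to 57.8% and Rragd 39.8% to 59%. Rragc then kept 42.6% to 56.8% and Lamtor1 43.6% to 53.4%. Against control Rragd was called higher in DKO (log2 fold change 0.94, SE 0.18, adjusted p = 0.0216), where 1.08% of all genes were, and this call was lost without DKO 3, control 1 or control 2 (adjusted p up to 0.102) and when only these 2 groups were fitted (adjusted p = 0.0728). DESeq2 called 2 members against control, beside 412 higher and 332 lower among all 54532 genes. In the main fit 4 members had an unadjusted p under 0.05 (19.4% of all genes). Leaving out DKO 1, the library rich in macrophage markers, changed no member's call against Tsc2 KO, and Rragd stayed called against control.

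In the drug cohort Rragc and Rragd, 2 of 9 members, were called lower in vehicle-treated DKO than in Tsc2 KO kidneys, where 5.89% of all genes were. Rragc was at 29.7, 27.6 and 31.1 FPKM in DKO (log2 fold change -0.68, SE 0.14, adjusted p = 0.00226), which left 2.90 of a difference from control of 20.7 FPKM (10.1% to 18.5% with 1 library left out). Rragd was at 36.3, 22.5 and 32.5 FPKM (log2 fold change -0.73, SE 0.19, adjusted p = 0.0129), which left 37.3% (28.1% to 49.7%). For both genes the DKO kidneys lay below all Tsc2 KO kidneys, and the Rragd call was lost without Tsc2 KO 2 (log2 fold change -0.61, adjusted p = 0.0601). Flcn (12.4, 11.6 and 13.4 FPKM) and Lamtor1 (28.1, 25.8 and 24.9 FPKM) overlapped Tsc2 KO, with adjusted p of 0.106 and 0.27, and kept 53.5% and 58.1% of the difference. With 1 library left out these shares ran from 45.4% to 65.5% and from 50.2% to 69.4%. Flcn was called without Tsc2 KO 1 (log2 fold change -0.39, adjusted p = 0.0478). Lamtor2 was higher in all DKO than in all Tsc2 KO kidneys, at 56.7, 46.5 and 51.1 against 34.1, 34.8 and 41.6 FPKM, without passing the test (log2 fold change 0.48, SE 0.19, adjusted p = 0.0777).

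Against vehicle-treated control Rragd was the 1 member called in DKO (log2 fold change 0.72, SE 0.20, adjusted p = 0.0391), where 2.44% of all genes were called higher. DESeq2 called 2 members, beside 630 higher and 434 lower among all 54532 genes. In the main fit 5 members had an unadjusted p under 0.05 (23.4% of all genes). Flcn (log2 fold change 0.43, SE 0.13, adjusted p = 0.0543) and Lamtor1 (0.46, SE 0.16, adjusted p = 0.1002) lay above every control, whereas for Rragd the lowest DKO kidney, at 22.5 FPKM, lay below the highest control at 23.3. The Rragd call was lost without DKO 1, DKO 3, control 1 or control 2, with adjusted p up to 0.138, and when only these 2 groups were fitted (adjusted p = 0.143).

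Tissue markers differed between DKO and Tsc2 KO kidneys too. Proximal tubule markers summed to 1140 to 1429 FPKM in CaggCreERT2 DKO against 411.1 to 880.2 in Tsc2 KO (3 of 6 called higher), and to 852.5 to 1582 against 363.7 to 596.4 in the drug cohort (4 of 6 higher). In the KspCre cohort they overlapped, at 542.8 to 1349 and 698 to 1313 (0 of 6 called), but principal cell (492 to 724.9 against 206.3 to 224.2, 1 of 4 called higher), distal convoluted tubule (128.6 to 202.7 against 60.9 to 106.0, 1 of 4 higher) and podocyte markers (48.6 to 62.1 against 29.7 to 39.8, 0 of 3 called) summed higher in every DKO kidney. In the CaggCreERT2 cohort 3 of 3 podocyte and 2 of 4 thick ascending limb markers were called higher in DKO. In the drug cohort 2 of 3 podocyte markers and 3 of 4 each of the thick ascending limb, distal convoluted tubule and principal cell markers were called higher, 1 principal cell marker lower, and the proliferation markers summed to 2.28 to 2.90 against 6.54 to 20.8. Macrophage markers in vehicle-treated DKO summed to 59.9 to 83.0 against 96.7 to 176.4 in Tsc2 KO (3 of 7 called lower), and in CaggCreERT2 DKO to 94.3 to 140.8 against 137.2 to 176.4 (1 of 7 lower). Against control, CaggCreERT2 DKO kidneys summed lower for distal convoluted tubule (114.3 to 173.4 against 332.4 to 374.5) and podocyte markers (89.3 to 94.3 against 139.5 to 153.6). So did intercalated (75.5 to 104.9 against 139.3 to 146.8) and proximal tubule markers (1140 to 1429 against 1676 to 1849). In the KspCre and drug cohorts podocyte markers summed below every control and intercalated markers above every control. The part of the markers in the levels of Rragc, Rragd, Flcn and Lamtor1 in DKO kidneys was not tested.

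Tfeb alone was inactivated in the CaggCreERT2 and KspCre cohorts as a control for the Tfeb effect in kidneys with Tsc2. The CaggCreERT2 controls were male and the Tfeb KO mice female, so sex cannot be told apart from Tfeb loss there. This also enters the difference between Tfeb effects given below. Tfeb itself was not called lower than control in either cohort. No member was called in either, where 0.0122% and 0% of all genes were, and DESeq2 likewise called 0 members. At an unadjusted p under 0.05 there was 1 member in the CaggCreERT2 cohort and 1 in the KspCre cohort, beside 8.01% and 8.56% of all genes. Rragc was at 23.4, 23.9 and 24.1 FPKM in CaggCreERT2 Tfeb KO and 21.4, 24.6 and 24.5 in KspCre Tfeb KO, overlapping the controls in both (log2 fold changes -0.030 and 0.0020). Rragd was at 14.4, 11.2 and 13.4 and at 11.4, 10.4 and 13.3 FPKM (log2 fold changes -0.14, SE 0.14, and -0.21, SE 0.18). The Tfeb effect with Tsc2 lost minus that with Tsc2 present was largest for Rragc in the CaggCreERT2 cohort (-0.54, SE 0.14, adjusted p = 0.0749). No member passed the edgeR test of this difference in either cohort, where 1.09% and 0% of all genes were called. At an unadjusted p under 0.05 there was 1 member in each, beside 15.9% and 9.80% of all genes. DESeq2 called 1 member in the CaggCreERT2 cohort, beside 446 higher and 184 lower among all 54532 genes, and 0 in the KspCre cohort. A dependence of the Tfeb effect on Tsc2 loss is thus not shown by edgeR, and for 1 member the answer rests on the choice of test.

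Rapamycin, an mTORC1 inhibitor that spares some substrates, was given to ask whether mTORC1 inhibition moves the members as Tfeb loss does. In Tsc2 KO kidneys 4 of 9 members were called lower with Rapamycin, where 8.13% of all genes were, and they were the 4 that had risen. Flcn went from 13.1, 15.1 and 17.4 to 9.38, 8.58 and 8.51 FPKM (log2 fold change -0.78, SE 0.13, adjusted p = 0.000227). Rragc went from 56.9, 41.6 and 43.2 to 22.4, 33.1 and 30.6 FPKM (log2 fold change -0.72, SE 0.14, adjusted p = 0.00111). Rragd went from 47.4, 59.0 and 45.3 to 23.7, 34.6 and 27.1 FPKM (log2 fold change -0.82, SE 0.19, adjusted p = 0.00453). The treated and untreated kidneys did not overlap for any of the 3.

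Lamtor1 went from 28.1, 30.8 and 35.4 to 23.3, 14.5 and 21.9 FPKM, also without overlap (log2 fold change -0.66, SE 0.16, adjusted p = 0.00593), and it was not called when only these 2 groups were fitted (adjusted p = 0.0513). Slc38a9 passed the test but lies under the FPKM minimum, at 1.21, 0.997 and 1.13 FPKM with vehicle and 0.731, 0.908 and 0.829 with Rapamycin (log2 fold change -0.43, SE 0.15, adjusted p = 0.0453). Rraga, Fnip1, Fnip2 and Lamtor2 were not called, with log2 fold changes from 0.078 to 0.46. That of Lamtor2, 0.26, was -0.0045 without treated Tsc2 KO 1 and 0.46 without treated Tsc2 KO 2 (adjusted p = 0.0655).

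In treated Tsc2 KO kidneys 10.4% of the difference from vehicle-treated control was left for Rragc, 6.35% for Lamtor1 and 31.2% for Rragd, and Flcn was at a mean of 8.83 FPKM against 9.25 in control. These shares rested on single libraries, as Rragc kept 25.8% without treated Tsc2 KO 1 and was at control level (-0.286%) without treated Tsc2 KO 2, Lamtor1 ran from -11.4% without vehicle control 2 to 28.3% without treated Tsc2 KO 2, and Rragd from 21.7% to 38.6%. Whether the 4 genes differ in this share was not tested. Against Rapamycin-treated controls, at 13.2, 12.8 and 12.7 FPKM, Rragd was higher in treated Tsc2 KO kidneys (log2 fold change 1.14, SE 0.20, adjusted p = 0.0119) and was the 1 member called, where 0.305% of all genes were called higher. This call was lost without treated Tsc2 KO 2 or any of the 3 treated controls, with adjusted p up to 0.0773 and the log2 fold change between 0.98 and 1.16 in those fits.

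Rapamycin also acted on DKO kidneys. Rragd went from 36.3, 22.5 and 32.5 to 12.8, 16.9 and 15.3 FPKM (log2 fold change -1.02, SE 0.20, adjusted p = 0.00761) and Flcn from 12.4, 11.6 and 13.4 to 9.13, 6.97 and 8.10 FPKM (log2 fold change -0.62, SE 0.13, adjusted p = 0.00973). These were the 2 members called, where 2.13% of all genes were called lower, and the Flcn call was lost without treated DKO 2 (adjusted p = 0.0647). The groups did not overlap for either gene. Against Rapamycin-treated controls no member was called in treated DKO kidneys (0.00587% of all genes), 0 had an unadjusted p under 0.05 (4.13% of all genes) and DESeq2 called 0. The response to Rapamycin in Tsc2 KO minus that in DKO passed the test for no member (5.35% of all genes, 2 members at an unadjusted p under 0.05 where 21.8% of all genes were, 0 called by DESeq2), with the largest value for Fnip2 (0.76, SE 0.28, adjusted p = 0.114).

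Treated Tsc2 KO and vehicle-treated DKO kidneys, in which mTORC1 inhibition and Tfeb loss stand side by side, differed for no member called (0.793% of all genes). At an unadjusted p under 0.05 there were 2 members (19.5% of all genes). DESeq2 called 1 member, beside 234 higher and 335 lower among all 54532 genes. Flcn was the nearest to a call, lower in all treated Tsc2 KO than in all DKO kidneys (log2 fold change -0.49, SE 0.13, adjusted p = 0.0622). For Rragc and Rragd the differences were -0.033 (SE 0.14) and -0.093 (SE 0.19).

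In control kidneys no member was called with Rapamycin (0.0294% of all genes). At an unadjusted p under 0.05 there were 3 members, where 11.3% of all genes were, and DESeq2 called 0. Rragd was 1 of these, at 15.3 to 23.3 FPKM with vehicle and 12.7 to 13.25 with Rapamycin (log2 fold change -0.51, SE 0.20, adjusted p = 0.386). Fnip1 went from 9.41, 14.3 and 11.3 to 6.50, 8.30 and 7.48 FPKM (log2 fold change -0.65, SE 0.17, adjusted p = 0.318) and Fnip2 from 13.96, 20.45 and 19.7 to 9.62, 13.8 and 10.6 FPKM (log2 fold change -0.67, SE 0.20, adjusted p = 0.353). In Tsc2 KO kidneys the values were 0.28 and 0.46, neither called, and that of Fnip1 was 0.062 without treated Tsc2 KO 2 (adjusted p = 0.826). The difference between the 2 responses was itself called for Fnip1 (0.93, SE 0.24, adjusted p = 0.0137) and Fnip2 (1.13, SE 0.28, adjusted p = 0.0098), and with the opposite sign for Flcn (-0.59, SE 0.18, adjusted p = 0.0281) and Lamtor1 (-0.82, SE 0.23, adjusted p = 0.0186), so 4 of 9 members against 14.4% of all genes. For Rragc (-0.46, SE 0.20, adjusted p = 0.106) and Rragd (-0.31, SE 0.27, adjusted p = 0.454) it was not. The Fnip1 and Fnip2 values use the same vehicle-treated controls as their comparison of Tsc2 KO with control, so these results are not independent. Those controls averaged 11.67 and 18.04 FPKM, beside 7.87 and 12.85 in the KspCre cohort controls, a difference that was not tested. The Flcn difference was lost without 6 libraries in turn, namely treated Tsc2 KO 2 and 3, vehicle Tsc2 KO 3, treated control 1 and 3, and vehicle control 2 (adjusted p 0.0548 to 0.068), and without the filter on low counts (adjusted p = 0.0587).

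**Figure D3:**
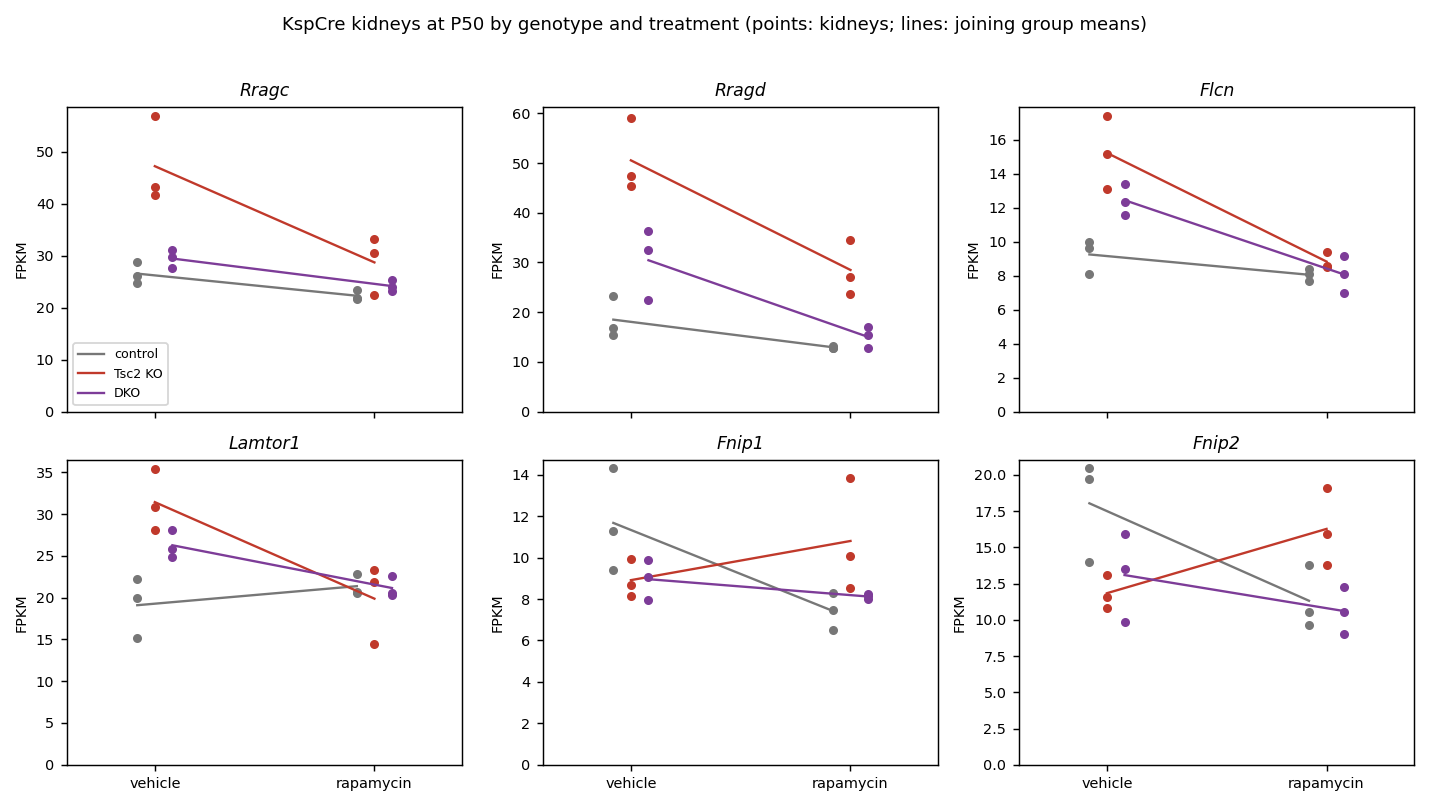
FPKM (vertical axes, from 0) of 6 of the genes in the drug cohort, by treatment (horizontal axis) and genotype. Points are kidneys and lines join group means. In Tsc2 KO kidneys Rragc, Rragd, Flcn and Lamtor1 fall to between 8.83 and 28.7 FPKM with Rapamycin, while the lines of Fnip1 and Fnip2 slope up in Tsc2 KO and down in control.

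The tissue markers again moved with these contrasts. The proximal tubule markers summed to 1260 to 1651 FPKM in Rapamycin-treated Tsc2 KO kidneys, against 363.7 to 596.4 with vehicle, with 5 of 6 called higher. The macrophage markers summed to 40.6 to 83.8 against 96.7 to 176.4 (3 of 7 called lower), and the intercalated markers to 154.8 to 270.3 against 297.2 to 380.8 (2 of 4 higher, 2 lower). Proliferation markers summed to 1.44 to 1.54 against 6.54 to 20.8 (all 4 passed the test, 1 called lower), those of the distal convoluted tubule to 124.6 to 236.3 against 53.2 to 68.2 (3 of 4 called higher), of podocytes to 32.6 to 91.3 against 20.05 to 25.9 (2 of 3 higher) and of the thick ascending limb to 1970 to 2479 against 981.9 to 1911 (3 of 4 higher). Tsc2 mRNA itself was higher in treated than in vehicle Tsc2 KO kidneys (log2 fold change 0.49, adjusted p = 0.00199), and higher in vehicle-treated DKO than in Tsc2 KO kidneys (0.58, adjusted p = 0.000843), while it stayed below control in each. In every KspCre and CaggCreERT2 DKO kidney Tsc2 also exceeded that of every Tsc2 KO kidney of its cohort, by 0.47 (adjusted p = 0.166) and 0.28 (adjusted p = 0.072). In DKO with vehicle the intercalated markers summed to 158.6 to 262.5 and with Rapamycin to 107.0 to 118.2. In control kidneys the principal cell markers summed to 256.3 to 315 with vehicle and 544.7 to 779.1 with Rapamycin. Those of the distal convoluted tubule summed to 245.6 to 304 and 183 to 241.4. With Rapamycin in control kidneys 0 of the 17027 genes tested were called higher and 5 lower, so no principal cell marker was called higher. Principal cell markers overlapped in Tsc2 KO, at 190.9 to 221.9 with vehicle and 175.3 to 463.3 with Rapamycin. The part of these markers and of the Tsc2 level in the changes of the members was not tested.

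The other genes of the amino acid branch were read beside the members. Of 25 such genes tested, 6 were called higher and 2 lower in Tsc2 KO in the CaggCreERT2 cohort, 3 and 1 in the KspCre cohort, and 4 and 4 in the drug cohort. Over all genes the shares called higher and lower were 11.4% and 7.65%, 4.38% and 4.06%, and 11.3% and 11.7%. The drug cohort counts, and the counts called lower in the other cohorts, are thus near the shares of all genes. Their median log2 fold changes were 0.06, 0.041 and 0.12. The 7 amino acid sensors among them accounted for 4 higher and 1 lower, 3 and 1, and 4 and 1 of these calls. Sestrins and CASTOR proteins act through the GATOR complexes on RagA and RagB.

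Sesn3 and Castor2 rose in all 3 cohorts and Castor1 fell. Sesn3, one of the stress-induced sestrins, had log2 fold changes of 1.403, 1.96 and 1.75, with means of 4.60, 4.15 and 5.86 FPKM in controls and 11.7, 16.2 and 19.7 in Tsc2 KO. Castor2 rose by 0.96, 1.09 and 0.91, while the arginine sensor Castor1 fell by 0.72, 0.93 and 1.17 on the log2 scale. Sesn1 was called higher in the KspCre and drug cohorts (0.51 and 0.65) and Sesn2 in the CaggCreERT2 and drug cohorts (0.84 and 1.03).

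Among further Ragulator subunits Lamtor3 was called higher in the CaggCreERT2 cohort (0.46) and Lamtor5 lower in the CaggCreERT2 and drug cohorts (-0.69 and -0.89; KspCre -0.55, adjusted p = 0.0564). Lamtor5 moved in the direction of Lamtor2, so that the subunits of 1 complex differed in sign. In the drug cohort alone Nprl2 of GATOR1 and Wdr24 of GATOR2 were called lower (-0.61 and -0.63), and in the CaggCreERT2 cohort alone Bmt2, the SAMTOR sensor of S-adenosylmethionine, and Smcr8, the partner of C9orf72, were called higher (0.47 and 0.44). Whether these differ between the cohorts was not tested.

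Rapamycin in Tsc2 KO kidneys lowered Sesn3 (log2 fold change -1.29), Castor2 (-0.70) and Sesn1 (-0.68) and raised Castor1 (0.93), Lamtor5 (0.72), Wdr24 (0.53) and Nprl2 (0.44), all called. Vehicle-treated DKO kidneys had higher Lamtor5 (0.84), Wdr24 (0.57) and Nprl2 (0.55) than Tsc2 KO, whereas Sesn3 (-0.52, adjusted p = 0.107) and Castor2 (-0.035, adjusted p = 0.925) were not called. In the CaggCreERT2 cohort Castor2 was higher still in DKO than in Tsc2 KO (0.41, adjusted p = 0.0237), at a mean of 37.2 FPKM against 27.5, while Rragc and Lamtor1 were lower.

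**Figure D4:**
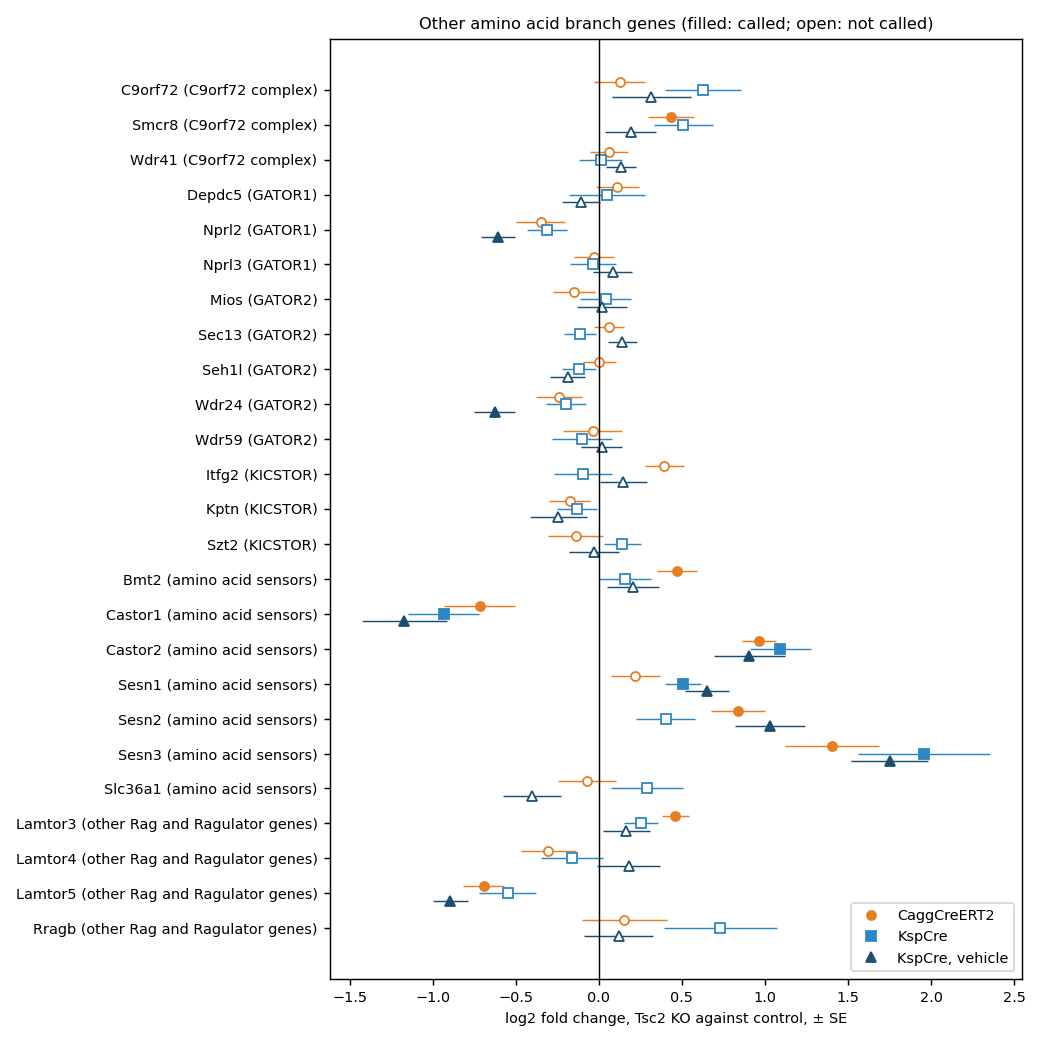
Log2 fold changes of Tsc2 KO against control with their SE (horizontal axis) for 25 other genes of the amino acid branch, in the 3 cohorts (vehicle-treated mice in the drug cohort). Filled symbols were called. Sesn3 and Castor2 are filled right of 0 and Castor1 left of 0 in all 3 cohorts, and the KICSTOR genes are open throughout.

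The likeness of the patterns was described over the 11 groups that are no cohort's reference control, as the correlation of mean log2 level differences from that control. These groups share controls within a cohort, which can raise correlations by itself, and no typical value over pairs of genes is given. The correlations are therefore a description and not a test. Rragc, Rragd and Flcn were close to each other (Pearson's r of 0.89 for Rragc and Rragd, 0.91 for Rragc and Flcn and 0.92 for Rragd and Flcn), and Lamtor1 was less so (0.77 to 0.83). Lamtor2 ran opposite to all 3 (-0.64 to -0.79) and Fnip2 was at 0.18 to 0.40. Among 7470 genes, those near to Rragc included Arl4a (0.98) and Zc3hav1 (0.98). Nearest to Rragd were Atp6v1d (0.98), a subunit of the lysosomal proton pump, Gm45847 (0.97) and Pip5k1b (0.97), and nearest to Flcn were Dync1li2 (0.98), Ugcg (0.98) and Fam129a (0.98).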

How the data were processed

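Kidney RNA was read as poly-A, non-directional libraries, 3 mice per group in 14 groups. The submitters' processing notes name HISAT2 2.0.5, STAR 2.6.1d, featureCounts 1.5.0-p3, DESeq2 1.20.0 and mm10, without their roles. The authors deposited tables of raw counts per gene and of FPKM values, which they made from the same reads. Both were used as deposited. The members and lists were chosen with earlier results of these data known.

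Counts were tested per cohort, all groups in 1 model, with edgeR 4.0.16 (TMM, quasi-likelihood test) in R 4.3.3, after a filter on low counts that left 16348, 16631 and 17027 genes, with Benjamini-Hochberg adjustment. Scripts were tested on simulated counts. A call needs a mean of 5 FPKM in a group compared and an adjusted p at or under 0.05. Alternatives were DESeq2 1.42.0, RLE size factors, no filter, only the groups compared, a replicate block, Xist as a covariate, other library names, and each library left out. Named genes are all 9 members, pathway genes called in Tsc2 KO against control, Tsc2 and Tfeb as the label check, and the 3 genes most like each of Rragc, Rragd and Flcn (1 of those of Rragc is not reported here), from log2(FPKM + 1) group means. Columns of the authors' own comparisons were not used. Replicates are separate mice. Kics2 was not matched in the files.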

Additional observations from a re-analysis of the deposited data

Results flagged for a closer look

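Responses to Rapamycin differed between Tsc2 KO and control kidneys for 4 members by the interaction test, with differences in log2 fold change of -0.59 for Flcn, 0.93 for Fnip1, 1.13 for Fnip2 and -0.82 for Lamtor1.

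Other contrasts had every kidney of 1 group on one side of the reference group's level and every kidney of another on the opposite side. Values are mean differences in log2 FPKM, with nothing added to the FPKM, from the reference group. Of the differences below, only that of Lamtor1 with Rapamycin in Tsc2 KO was called by edgeR. For Fnip2 Rapamycin gave -0.67 in control, 0.45 in Tsc2 KO and -0.29 in DKO, and the difference between Tsc2 KO and DKO was not called (0.76, adjusted p = 0.114, edgeR). For Lamtor1 it gave 0.18 in control, -0.69 in Tsc2 KO and -0.31 in DKO, and for Lamtor2 0.22 in control and -0.19 in DKO. Fnip1 in Tsc2 KO against control was at 0.22 in the KspCre cohort and -0.37 in the drug cohort. Slc38a9 in DKO against Tsc2 KO was at 0.088 with CaggCreERT2, -0.17 with KspCre and -0.20 in the drug cohort. Lamtor2 in Tfeb KO against control was at -0.20 in the CaggCreERT2 cohort and 0.35 in the KspCre cohort. The differences between cohorts, and those of Lamtor1 and Lamtor2 between control and DKO, were not tested.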

How the results depend on the processing

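Of 36 member values called, DESeq2 and RLE size factors each kept 36, no filter on low counts 33, and fitting only the groups compared 28 of the 32 it could be run on. In the CaggCreERT2 cohort Xist as a covariate kept 9 of 12 (losing Rraga in Tsc2 KO and Flcn and Lamtor1 in DKO, all against control), naming by the count table kept 6 of 12, and leaving out the libraries of conflicting genotype 11 of 12. None reversed. Values not called are counted here only for the 7 comparisons of Tsc2 KO with control, DKO with Tsc2 KO and Rapamycin with vehicle in Tsc2 KO. Of these 40, DESeq2 called 1 (CaggCreERT2 DKO against Tsc2 KO, Rragd). No filter called 2 (Rragd and Fnip2 there, adjusted p = 0.0306 and 0.0139), and fitting only the groups compared called 2 (Fnip2 there, adjusted p = 0.0482, and Lamtor2 in drug cohort DKO against Tsc2 KO, adjusted p = 0.0405). The calls of Rragc, Rragd, Flcn and Lamtor1 in Tsc2 KO against control held under every alternative run in the 3 cohorts. Members called lower in CaggCreERT2 DKO against Tsc2 KO numbered 2, but 1 under the names of the count table and 4 without the filter, and 1 to 3 with 1 library left out. In the drug cohort the same comparison gave 2, and 1 to 3 with 1 library left out. The cause was not tested. Replicate numbers do not pair the mice (median correlations of same-numbered deviations 0.0088, -0.04 and -0.005 in the 3 cohorts), and the replicate block kept 35 of 36 calls, losing Rraga in the CaggCreERT2 cohort (adjusted p = 0.0608) and adding Lamtor2 in drug cohort DKO against Tsc2 KO (0.47, adjusted p = 0.0408). Slc38a9, with 161 to 400 reads per library, is the member that depth limits most.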
